A study of Mus musculus with 9 samples.

Results

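The genes described here are the Wnt ligands, their receptors and co-receptors, their secreted inhibitors, the R-spondin receptors with the ubiquitin ligases they control, the nuclear TCF and LEF factors and a pair of feedback targets, measured by RNA-Seq in NMuMG cells. They were picked out of the files by a rule on gene symbols that holds no measured value, set with earlier results of these data known: every Wnt, Fzd, Sfrp and Dkk gene with a numbered symbol, and *Lrp5*, *Lrp6*, *Ror1*, *Ror2*, *Lgr4*, *Lgr5*, *Rnf43*, *Znrf3*, *Lef1*, *Tcf7*, *Tcf7l1*, *Tcf7l2*, *Axin2* and *Nkd1*. This gave 51 of the 52459 gene symbols in the files. NMuMG is an immortalized line of mouse mammary gland cells. The 9 libraries fall into 3 groups of 3: mock cells (libraries 203 to 205), cells overexpressing the long noncoding RNA EPR, the product of *BC030870* (206 to 208), and cells overexpressing EPRSTOPE, a point mutant of EPR in which the second codon of a short reading frame is a stop codon, so that no peptide is made (209 to 211). Cells of every group, mock included, were stably transfected with vectors built on pBICEP, in which a CMV promoter drives the insert, and kept as G418-selected pools. The study's methods describe the libraries of each group as biological triplicates. Neither they nor the labels say whether these came from separate transfected pools or from separate cultures of 1 pool, so p-values measure the spread between these libraries. Chance differences between transfected pools and the effect of the transgene cannot be told apart.

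Wnt proteins are secreted ligands that need a lipid attached by *Porcn* before they can leave the cell. In the canonical branch they bind a Frizzled receptor together with LRP5 or LRP6, which stops the breakdown of β-catenin, and β-catenin then joins TCF and LEF proteins on DNA to switch on targets such as *Axin2*. Other branches work without β-catenin, through receptors such as ROR1 or through the planar polarity proteins. The ubiquitin ligases ZNRF3 and RNF43 remove Frizzled from the cell surface, and R-spondins acting through LGR4 or LGR5 block this removal. In the mammary gland the pathway is known for its part in duct formation, branching and the upkeep of stem cells.

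Values are given in the order of the library numbers as CPM, that is, counts in each 1000000 counts of a library after TMM scaling in edgeR. Comparisons between genes use TPM, which also divides by transcript length. The libraries held 5972457 to 11876435 estimated counts, at which 3 counts correspond to 0.244 to 0.508 CPM. EPR RNA had 2 counts over the mock libraries, 23.6 to 27.0 CPM in the EPR libraries and 3.80 to 4.74 CPM in the EPRSTOPE libraries, so EPR and EPRSTOPE cells differed in the amount of the RNA as well as in its reading frame, and the effects of these cannot be told apart. The labelled cell type was only partly borne out by its markers. Of 12 luminal epithelial markers, *Krt8*, *Krt18* and *Krt19* were abundant in every group, but *Cdh1* averaged 0.843 CPM in mock cells against 556 with EPR and 403 with EPRSTOPE. *Epcam* had no count in mock cells and averaged 3.63 CPM with EPR but 0.11 CPM with EPRSTOPE. *Cldn3*, *Cldn4*, *Cldn7* and *Esrp1* stayed under 1 CPM on average in every group. The luminal markers, mainly *Krt8* and *Krt18*, summed to 3698 to 4164 CPM in the mock libraries, 9501 to 10610 with EPR and 10710 to 11050 with EPRSTOPE. The 14 fibroblast or mesenchymal markers, mainly *Vim* and *Fn1*, summed to 4089 to 4251, 2214 to 2446 and 3961 to 4300 CPM in the same order, with *Col1a1*, *Col3a1*, *Dcn* and *Lum* under 1 CPM on average. Within this sum, members moved apart between EPRSTOPE and mock cells. *Vim* averaged 3138 against 2634 CPM and *Pdgfra* 1.30 against 0. *Fn1* (782 against 1039), *Cdh2* (158 against 331), *Zeb2* (44.1 against 57.75) and *Cxcl12* (0 against 49.2) were lower, and *Zeb1* differed little (50.1 against 54.1). With EPR, *Vim*, *Fn1*, *Cdh2*, *Zeb2* and *Cxcl12* were lower than in mock cells. *Pdgfra* was higher there, at 1.19 CPM on average, and *Zeb1* differed little, at 49.5 CPM. The 8 basal markers summed to 10.9 to 13.6 CPM in the mock libraries and to at most 3.56 CPM in any other, with *Trp63* at 0. Most of the mock sum was *Acta2*, at 10.1 CPM on average, while *Krt14* averaged 0.896, 0 and 2.32 CPM in mock, EPR and EPRSTOPE cells. The 5 immune markers summed to at most 1.86 CPM, and of the 5 endothelial markers *Pecam1* alone averaged more than 1 CPM. The part of these marker differences in the results below was not tested, and in bulk RNA fewer cells of a type and less RNA per cell cannot be told apart.

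Of the 51 genes, 24 had at least 1 CPM in at least 3 libraries and were tested. The other 27 stayed at or below 2.17 CPM in every library, and 6 of them, *Wnt1*, *Wnt6*, *Wnt8b*, *Wnt9b*, *Ror2* and *Sfrp2*, had no count in any. A gene was called higher or lower at an adjusted p under 0.01 (edgeR's quasi-likelihood test, Benjamini-Hochberg over 15370 genes) and a log2 fold change beyond 0.5. Against mock, EPR cells had 5 of the 24 tested genes called higher and 9 called lower, where 15.2% and 12.9% of all tested genes were called. EPRSTOPE cells had 4 called higher and 13 called lower, against 15.6% and 12.4% of all tested genes. In EPR against EPRSTOPE, 5 were higher and 1 was lower, against 6.86% and 6.35%. The counts called lower against mock and higher in EPR against EPRSTOPE were thus above the shares over all genes. With 24 genes, the counts called higher against mock and lower in EPR against EPRSTOPE could not be told from these shares. The median log2 fold change of the 24 was -0.71 for EPR and -0.84 for EPRSTOPE against mock, where the medians over all tested genes were -0.01 and -0.04. These counts and medians are descriptions only, since *Wnt2*, *Wnt5a*, *Fzd9* and *Rnf43* reached 1 CPM in mock libraries alone and entered the test through the group in which they were high. Likewise *Fzd8* reached 1 CPM in mock and EPR libraries alone and entered without EPRSTOPE, which bears on the count higher in EPR against EPRSTOPE. Both comparisons with mock use the same 3 mock libraries.

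The 2 comparisons with mock called 12 genes in common, each in the same direction. *Wnt7a*, *Wnt7b* and *Lgr4* were higher with both RNAs, and *Wnt2*, *Wnt4*, *Wnt5a*, *Fzd2*, *Fzd3*, *Fzd4*, *Ror1*, *Znrf3* and *Tcf7* were lower with both. *Lrp5* and *Tcf7l2* were called in EPR cells and not in EPRSTOPE cells, and for both the direct comparison was also called. *Fzd1*, *Fzd5*, *Fzd7*, *Fzd8* and *Rnf43* were called in EPRSTOPE cells and not in EPR cells. For *Fzd5* and *Fzd8* the direct comparison was also called, while for *Fzd1*, *Fzd7* and *Rnf43* a difference between EPR and EPRSTOPE was not shown. With counts recomputed from TPM and gene length, several calls were lost. With EPR against mock these were *Fzd3*, *Ror1*, *Znrf3* and *Tcf7l2*, with log2 fold changes of -1.14, -0.35, -0.43 and 1.01 (adjusted p = 0.13, 0.098, 0.13 and 0.025). With EPRSTOPE against mock they were *Fzd1*, *Fzd2*, *Fzd4*, *Ror1*, *Znrf3* and *Tcf7*, at -0.85, -0.65, -1.44, -0.48, 0.07 and -1.21 (adjusted p = 0.021, 0.019, 0.016, 0.033, 0.83 and 0.043). In EPR against EPRSTOPE they were *Fzd2*, *Fzd3* and *Tcf7l2*, at -0.89, 2.53 and 1.24 (adjusted p = 0.011, 0.026 and 0.024). Of these values, those of *Ror1* and *Znrf3* fell below the size limit of 0.5, and the others stayed beyond it. In the same setting EPRSTOPE against mock gained calls of *Fzd6*, *Lgr5* and *Lrp5*, the last at 0.58 (adjusted p = 0.0034), and EPR against mock gained *Lgr5*. *Lrp5* was thus called with both RNAs there.

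**Figure D1:**
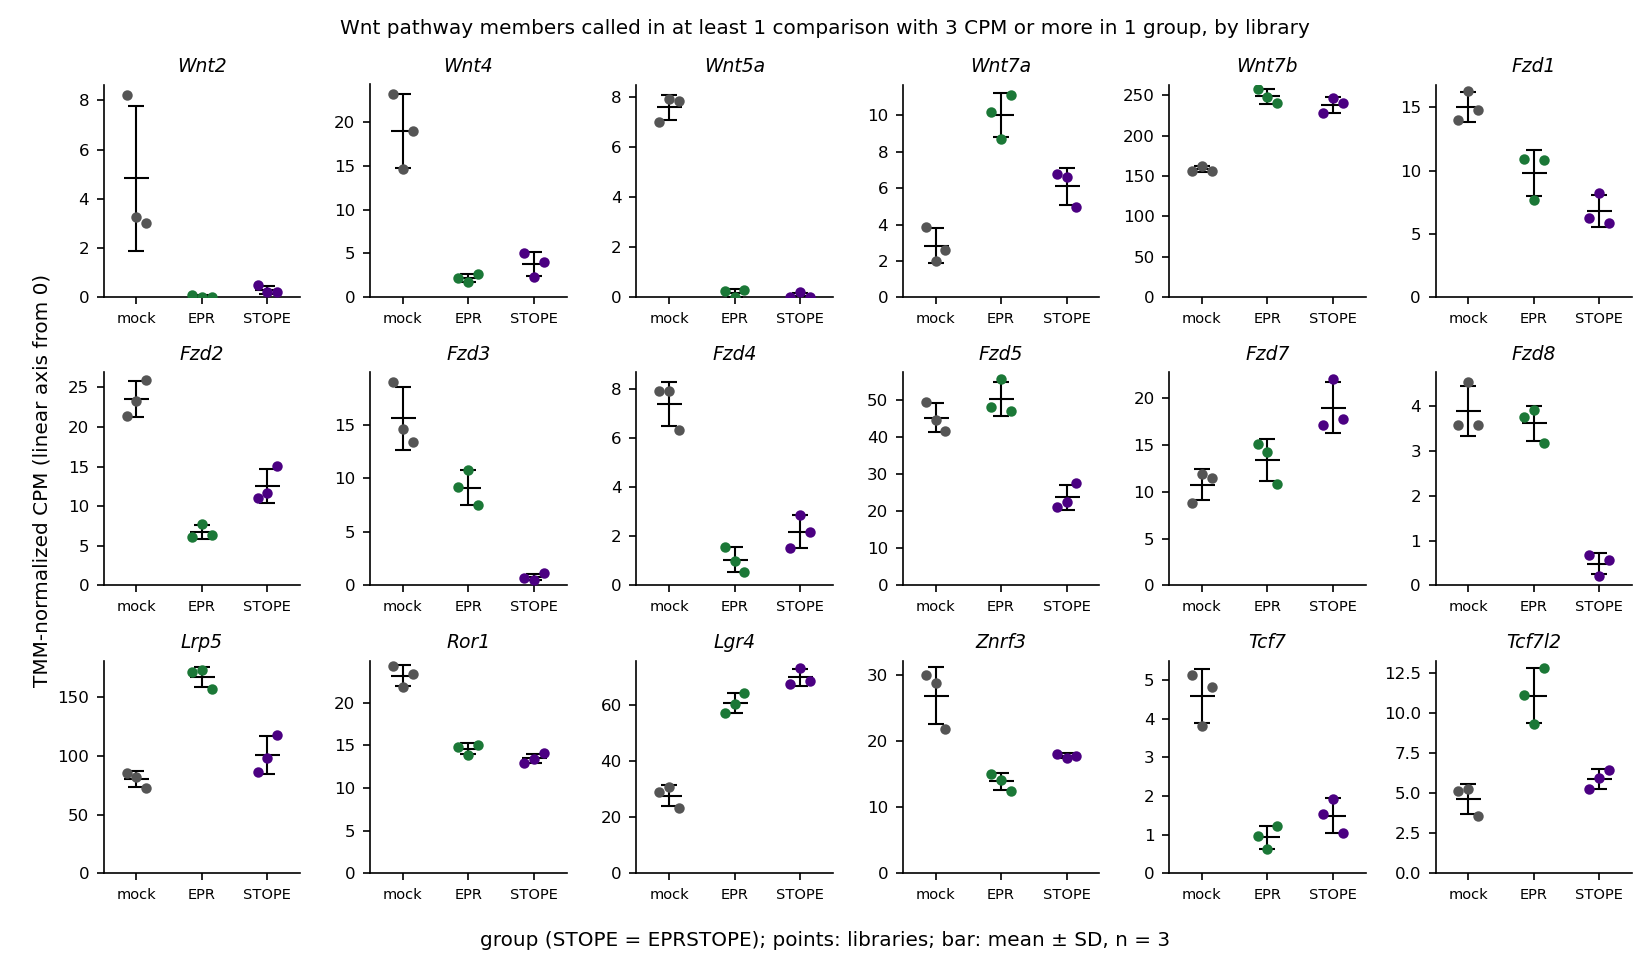
TMM-normalized CPM (linear axes from 0) of the 18 genes called in at least 1 comparison and averaging 3 CPM or more in 1 group, by group, with 1 point per library and the mean ± SD of 3 libraries. *Wnt2*, *Wnt4*, *Wnt5a*, *Fzd4* and *Tcf7* sat high in mock cells and low in both others, *Lgr4* and *Wnt7b* showed the opposite, and *Fzd3*, *Fzd5* and *Fzd8* were lowest in EPRSTOPE cells.

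Among the 19 ligand genes, mock cells held 1 abundant ligand and several minor ones, and cells overexpressing either RNA kept the abundant one while the minor ligands *Wnt2*, *Wnt4* and *Wnt5a* fell. *Wnt7b* (ENSMUSG00000022382.14, chromosome 15 of GRCm38, 85535437 to 85582473), a ligand made by epithelia, measured 156, 163 and 156 CPM in mock cells, 258, 247 and 240 CPM with EPR, and 227, 246 and 241 CPM with EPRSTOPE. Every library of the overexpressing cells lay above every mock library, and the libraries of EPR and EPRSTOPE overlapped. The log2 fold change was 0.65 (SE 0.06, adjusted p = 1.4e-06) for EPR and 0.59 (SE 0.06, adjusted p = 3.2e-06) for EPRSTOPE, and EPR against EPRSTOPE gave 0.06 with a 95% interval of -0.06 to 0.18. The rise was of the size seen in genes around it. The 50 tested genes nearest to *Wnt7b* had a median log2 fold change of 0.53 with EPR and 0.77 with EPRSTOPE, and 5 of the 50 were below 0 in each comparison. The 526 tested genes of chromosome 15 had medians of 0.49 and 0.51. Relative to its 50 neighbours *Wnt7b* stood at 0.12 with EPR and -0.18 with EPRSTOPE.

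In TPM, *Wnt7b* made up 80.8% ± 2.87 (SD, n = 3) of the summed ligand TPM in mock cells, 93.9% ± 1.29 in EPR cells and 93.7% ± 2.52 in EPRSTOPE cells. Its mean level was 38.4 TPM in mock cells, against 3.54 TPM for *Wnt4*, which came next. *Wnt5a* and *Wnt2* followed at 1.86 TPM each, with overlapping libraries. Of the *Wnt5a* TPM in mock cells, 33.45% and 23.35% came from the transcripts Wnt5a-203 and Wnt5a-204, which code for no protein. The single transcript of *Wnt2* is a coding one, so the 2 genes were not level in coding RNA. In EPR cells the second ligand was *Wnt7a*, at 3.03 TPM, ahead of *Wnt4* at 0.440 TPM, and EPRSTOPE cells had the same order, with 2.16 and 0.776 TPM.

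**Figure D2:**
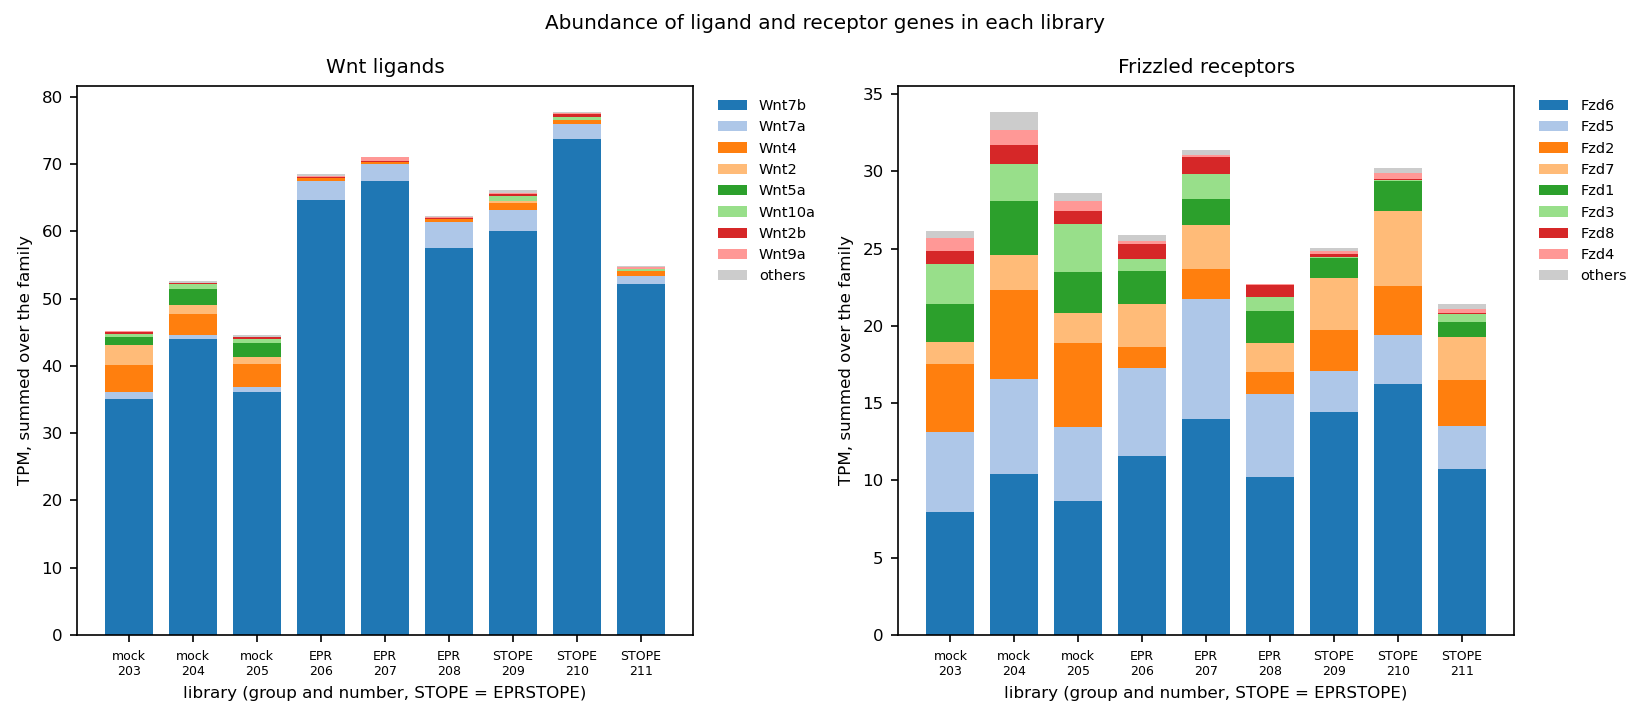
TPM of the 19 Wnt ligand genes (left) and 10 Frizzled genes (right) stacked for each of the 9 libraries, with the 8 most abundant genes of each family in color and the others in grey. *Wnt7b* filled most of every ligand bar, and the *Fzd6* band widened from 30.5% of the Frizzled total in mock cells to 44.8% and 53.8% in EPR and EPRSTOPE cells, while the *Fzd2* band narrowed.

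*Wnt7a* (ENSMUSG00000030093.7, chromosome 6, 91363981 to 91411363), the close relative of *Wnt7b*, measured 3.88, 2.005 and 2.60 CPM in mock cells, 10.2, 8.71 and 11.1 CPM with EPR, and 6.78, 6.62 and 4.95 CPM with EPRSTOPE. The 3 groups did not overlap, with mock lowest and EPR highest. It was 3.63-fold higher with EPR (log2 fold change 1.86, SE 0.25, adjusted p = 5.6e-05) and 2.20-fold higher with EPRSTOPE (1.14, SE 0.26, adjusted p = 0.003). The EPRSTOPE call was lost without mock library 204 or 205 or EPRSTOPE library 209 or 210, with log2 fold changes of 0.95, 1.09, 1.07 and 1.07, and in a fit of only these groups (adjusted p = 0.011). The direct comparison gave 0.72 (adjusted p = 0.034), which was not called.

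*Wnt4* (ENSMUSG00000036856.4, chromosome 4, 137277489 to 137299726), a ligand known for its part in progesterone-driven side branching of mammary ducts, measured 23.2, 14.7 and 18.97 CPM in mock cells, 2.18, 1.77 and 2.62 CPM with EPR, and 5.08, 2.35 and 4.03 CPM with EPRSTOPE. Every mock library lay above every other library, and the EPR and EPRSTOPE libraries overlapped. The fall was 8.47-fold with EPR (log2 fold change -3.08, SE 0.28, adjusted p = 2.1e-06) and 5.05-fold with EPRSTOPE (-2.34, SE 0.27, adjusted p = 1.6e-05). EPR against EPRSTOPE, -0.75 with an interval of -1.43 to -0.06, was not called (adjusted p = 0.095).

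*Wnt5a* (ENSMUSG00000021994.15, chromosome 14, 28504750 to 28527448), the best known ligand of the β-catenin-independent branch, measured 6.99, 7.91 and 7.81 CPM in mock cells. It had 6 counts over the 3 EPR libraries and 2 over the 3 EPRSTOPE libraries, against 216 in mock cells, so it was close to absent from both overexpressing groups. The log2 fold change was -5.17 with EPR (SE 0.54, adjusted p = 7.6e-06), and the count ratio of mock to EPRSTOPE was 91.8, with a 95% counting interval of 25.1 to 762 (adjusted p = 6e-06). *Wnt2* (ENSMUSG00000010797.6, chromosome 6, 17988940 to 18030585), a ligand of the canonical branch, measured 8.23, 3.27 and 3.01 CPM in mock cells, and the libraries of the other groups were between 0 and 0.508 CPM. Library 203 stood well above the other mock libraries, and every mock library stood above every other library. Against 121 counts in mock cells there was 1 in EPR cells, a ratio of 129 with an interval of 22.7 to 5140 (adjusted p = 2.4e-05), and EPRSTOPE against mock gave a log2 fold change of -3.93 (SE 0.62, adjusted p = 0.00021). These intervals cover counting error only.

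*Wnt2b*, at 0.978 CPM in mock cells, 0.559 with EPR and 0.695 with EPRSTOPE, was tested and not called in any comparison, and its intervals spanned 0. *Wnt10a* and *Wnt9a*, each below 2 CPM in every library, did not enter the test. *Wnt10a* had 3, 9 and 17 counts in mock cells, none in any EPR library, and 3, 7 and 3 counts in EPRSTOPE cells. With a floor of 3 counts per library *Wnt10a* in EPR cells was at least 3.44-fold lower, set against mock cells, and with no filter on low counts it was called in EPR against mock (adjusted p = 2.6e-05) and in EPR against EPRSTOPE (adjusted p = 0.0019). *Wnt9a* had the reverse order, with 3 counts over the mock libraries, 24 with EPR and 18 with EPRSTOPE, and was not called with no filter. Another 7 ligand genes, *Wnt3*, *Wnt3a*, *Wnt5b*, *Wnt8a*, *Wnt10b*, *Wnt11* and *Wnt16*, had at most 0.847 CPM in any library.

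Of the 6 genes called between EPR and EPRSTOPE cells, 5 were receptors or co-receptors. Of the 14 receptor and co-receptor genes 12 were tested, of which EPR against mock called 1 higher and 4 lower, EPRSTOPE against mock 1 higher and 7 lower, and EPR against EPRSTOPE 4 higher and 1 lower. Over all tested genes the shares called higher and lower were 15.2% and 12.9%, 15.6% and 12.4%, and 6.86% and 6.35% in the same order. The receptors called lower against mock and those called higher in EPR against EPRSTOPE were thus above these shares. With 12 genes, the counts of 1 could not be told from them. These counts too are descriptions only. *Fzd3* (ENSMUSG00000007989.7, chromosome 14, 65192449 to 65262463), a Frizzled best known for guiding axons, measured 18.95, 14.6 and 13.4 CPM in mock cells, 9.16, 10.7 and 7.48 CPM with EPR, and 0.678, 0.534 and 1.15 CPM with EPRSTOPE. The 3 groups did not overlap. It was 19.2-fold lower than mock with EPRSTOPE (log2 fold change -4.27, SE 0.29, adjusted p = 1.6e-07) and 11.3-fold higher with EPR than with EPRSTOPE (3.50, SE 0.30, adjusted p = 4.1e-06). Its fall with EPR was small (-0.77, SE 0.21, adjusted p = 0.0083), and the call was lost without mock library 203, 204 or 205 or EPR library 206 or 208, with values from -0.88 to -0.61. The 50 nearest genes moved the other way, with medians of 0.73 with EPR and 0.71 with EPRSTOPE. Of its 2 transcripts the shorter, which codes for no protein, took 67.7% of its TPM in mock cells, 46.6% with EPR and 74.2% with EPRSTOPE. The EPRSTOPE share rested on library 211, in which *Fzd3* had 10 counts. Over the EPRSTOPE libraries this transcript ran from 0 to 0.406 TPM, so its share there is not a stable value.

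*Fzd8* (ENSMUSG00000036904.5, chromosome 18) measured 3.57, 4.54 and 3.58 CPM in mock cells, 3.75, 3.92 and 3.18 CPM with EPR, and 0.678, 0.214 and 0.575 CPM with EPRSTOPE. Mock and EPR libraries overlapped, and every EPRSTOPE library lay below 1 CPM. EPRSTOPE against mock gave -3.03 (SE 0.39, adjusted p = 4.2e-05) and EPR against EPRSTOPE 2.92 (SE 0.39, adjusted p = 0.00015), while EPR against mock gave -0.11 with an interval of -0.76 to 0.53. *Fzd5* (ENSMUSG00000045005.9, chromosome 1, 64730558 to 64737751), a receptor that also serves in the gut epithelium, behaved alike at a higher level. It measured 49.4, 44.5 and 41.8 CPM in mock cells, 48.2, 55.7 and 47.1 CPM with EPR, and 21.2, 22.5 and 27.6 CPM with EPRSTOPE, and the last group lay apart from the others. EPRSTOPE cells were 1.89-fold lower than mock cells (-0.92, SE 0.11, adjusted p = 3.3e-05) and EPR cells 2.10-fold higher than EPRSTOPE cells (1.07, SE 0.11, adjusted p = 2.4e-05). For EPR against mock the interval of *Fzd5* ran from -0.08 to 0.39. The medians of the 50 nearest genes were -0.01 for *Fzd8* and -0.21 for *Fzd5* in EPRSTOPE against mock.

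*Fzd2* (ENSMUSG00000050288.6, chromosome 11, 102604396 to 102608058) measured 21.4, 23.3 and 25.9 CPM in mock cells, 6.11, 7.70 and 6.35 CPM with EPR, and 11.01, 11.6 and 15.1 CPM with EPRSTOPE. The groups did not overlap, and EPR was lowest. It was the 1 gene of the 51 called lower in EPR than in EPRSTOPE cells (-0.92, SE 0.16, adjusted p = 0.001), with -1.82 for EPR (SE 0.15, adjusted p = 1.2e-06) and -0.90 for EPRSTOPE against mock (SE 0.15, adjusted p = 0.00029). *Fzd4* (ENSMUSG00000049791.4, chromosome 7, 89404355 to 89413134), the receptor of norrin in vessels of the eye, measured 7.92, 7.91 and 6.35 CPM in mock cells, 1.57, 1.01 and 0.561 CPM with EPR, and 1.53, 2.88 and 2.19 CPM with EPRSTOPE. Both overexpressing groups lay below mock and overlapped each other by a small margin. Against mock *Fzd4* fell by 2.79 with EPR (SE 0.36, adjusted p = 4.3e-05) and by 1.71 with EPRSTOPE on the log2 scale (SE 0.33, adjusted p = 0.0011), and the direct comparison (-1.08, adjusted p = 0.056) was not called.

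*Fzd7* (ENSMUSG00000041075.8, chromosome 1, 59482424 to 59486955), a receptor linked to mammary stem cells, measured 8.86, 11.9 and 11.5 CPM in mock cells, 15.1, 14.3 and 10.8 CPM with EPR, and 17.1, 22.1 and 17.8 CPM with EPRSTOPE. Mock and EPR libraries overlapped, and EPRSTOPE was above both. The rise with EPRSTOPE was 1.76-fold (0.81, SE 0.17, adjusted p = 0.0016), and EPR against EPRSTOPE gave -0.51 (adjusted p = 0.035), not called. *Fzd6*, which acts mostly in planar polarity and lies on chromosome 15, was the most abundant Frizzled in each group, at 9.02, 11.9 and 13.8 TPM in mock, EPR and EPRSTOPE cells. Its log2 fold changes of 0.31 and 0.49 against mock (adjusted p = 0.0064 and 0.00028) stayed under the size limit of 0.5, which the second passed without mock library 204, EPR library 208 or EPRSTOPE library 211 (0.51 to 0.53), beside medians of 0.43 and 0.40 for its 50 nearest genes. *Fzd9*, between 0 and 2.64 CPM, was not called in any comparison, and *Fzd10* had 2 counts in 1 library.

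*Fzd1* (ENSMUSG00000044674.6, chromosome 5, 4753839 to 4758035) and *Ror1* (ENSMUSG00000035305.5, chromosome 4, 100095791 to 100444765), a tyrosine kinase-like receptor of WNT5A, were called lower with EPRSTOPE, and *Ror1* also with EPR. Of the 18 genes shown by library 11 have a promoter in the RefSeq table, and these 2 held a core motif of TCF and LEF proteins there, which is why their promoters are printed. The motif searched was CTTTGA on either strand, which reads TCAAAG on the other, in windows of 300 bases from 250 before to 50 after each RefSeq gene start. It stood in 6 of 44 promoters (13.6%) listed for 35 of the 51 genes and in 5257 of 32851 of all listed promoters (16%). The 250 bases before each start are printed 5′ to 3′ on the strand of the gene from RefSeq on GRCm38.p6, with the motif in capitals, chr5:4758217-4758466 on the minus strand for *Fzd1* and chr4:100095541-100095790 on the plus strand for *Ror1*. The motif began at position -242 from the start of *Fzd1* and at -205 from that of *Ror1*. A match is a run of letters and no evidence of binding.
Fzd1: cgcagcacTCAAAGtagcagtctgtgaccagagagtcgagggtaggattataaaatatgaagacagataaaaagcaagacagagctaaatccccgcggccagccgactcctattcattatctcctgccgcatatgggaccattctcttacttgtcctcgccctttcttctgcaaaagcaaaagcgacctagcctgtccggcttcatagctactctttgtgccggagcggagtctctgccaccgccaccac
Ror1: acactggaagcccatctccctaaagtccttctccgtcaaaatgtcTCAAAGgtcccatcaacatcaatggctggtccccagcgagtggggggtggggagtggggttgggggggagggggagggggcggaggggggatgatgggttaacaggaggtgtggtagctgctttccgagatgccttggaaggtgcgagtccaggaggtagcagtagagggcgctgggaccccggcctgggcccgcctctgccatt

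*Fzd1* measured 13.98, 16.3 and 14.8 CPM in mock cells, 10.9, 7.70 and 10.8 CPM with EPR, and 6.27, 8.22 and 5.87 CPM with EPRSTOPE. Mock libraries lay above all others, and EPR and EPRSTOPE overlapped. EPRSTOPE cells were 2.20-fold lower than mock cells (-1.14, SE 0.18, adjusted p = 0.00026). The EPR value of -0.61 (SE 0.17, adjusted p = 0.012) missed the limit, and was called with limma-voom, with no filter and without EPRSTOPE library 210 (adjusted p = 0.0064, 0.0057 and 0.0086). *Ror1* measured 24.2, 21.8 and 23.4 CPM in mock cells, 14.8, 13.9 and 15.1 CPM with EPR, and 12.9, 13.4 and 14.04 CPM with EPRSTOPE. Its mock libraries stood apart, and EPR and EPRSTOPE overlapped. *Ror1* fell by 0.66 with EPR (SE 0.10, adjusted p = 0.00014) and by 0.78 with EPRSTOPE on the log2 scale (SE 0.10, adjusted p = 4.6e-05), and the direct difference of 0.12 had an interval of -0.11 to 0.34. The fall with EPR relative to its 50 nearest genes was -0.41, under the size limit.

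The co-receptors were the most abundant receptor genes by mean TPM in every group. *Lrp5* (ENSMUSG00000024913.16, chromosome 19, 3584828 to 3686564), the co-receptor also known for its role in bone, measured 85.4, 82.4 and 72.3 CPM in mock cells, 171, 173 and 157 CPM with EPR, and 85.9, 98.6 and 118 CPM with EPRSTOPE. EPR libraries lay far above the others, and the lowest EPRSTOPE library barely cleared the highest mock library. *Lrp5* was 2.09-fold higher with EPR than in mock cells (1.06, SE 0.11, adjusted p = 4.7e-06) and 1.65-fold higher with EPR than with EPRSTOPE (0.73, SE 0.10, adjusted p = 0.00026). EPRSTOPE against mock, 0.34 with an interval of 0.11 to 0.57, was not called (adjusted p = 0.019), but was called with counts scaled from TPM and length (0.58, adjusted p = 0.0034). *Lrp6* differed little between groups. It measured 127 to 148 CPM in all 9 libraries, with log2 intervals of -0.23 to 0.07 for both comparisons with mock and of -0.15 to 0.15 for EPR against EPRSTOPE. In TPM, *Lrp6* was above *Lrp5* in mock cells (22.6 ± 4.90 against 12.5 ± 1.63, SD, n = 3) and below it in EPR cells (16.4 ± 2.01 against 27.7 ± 3.39). In EPRSTOPE cells the libraries overlapped (18.1 ± 3.17 against 16.6 ± 1.97).

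**Figure D3:**
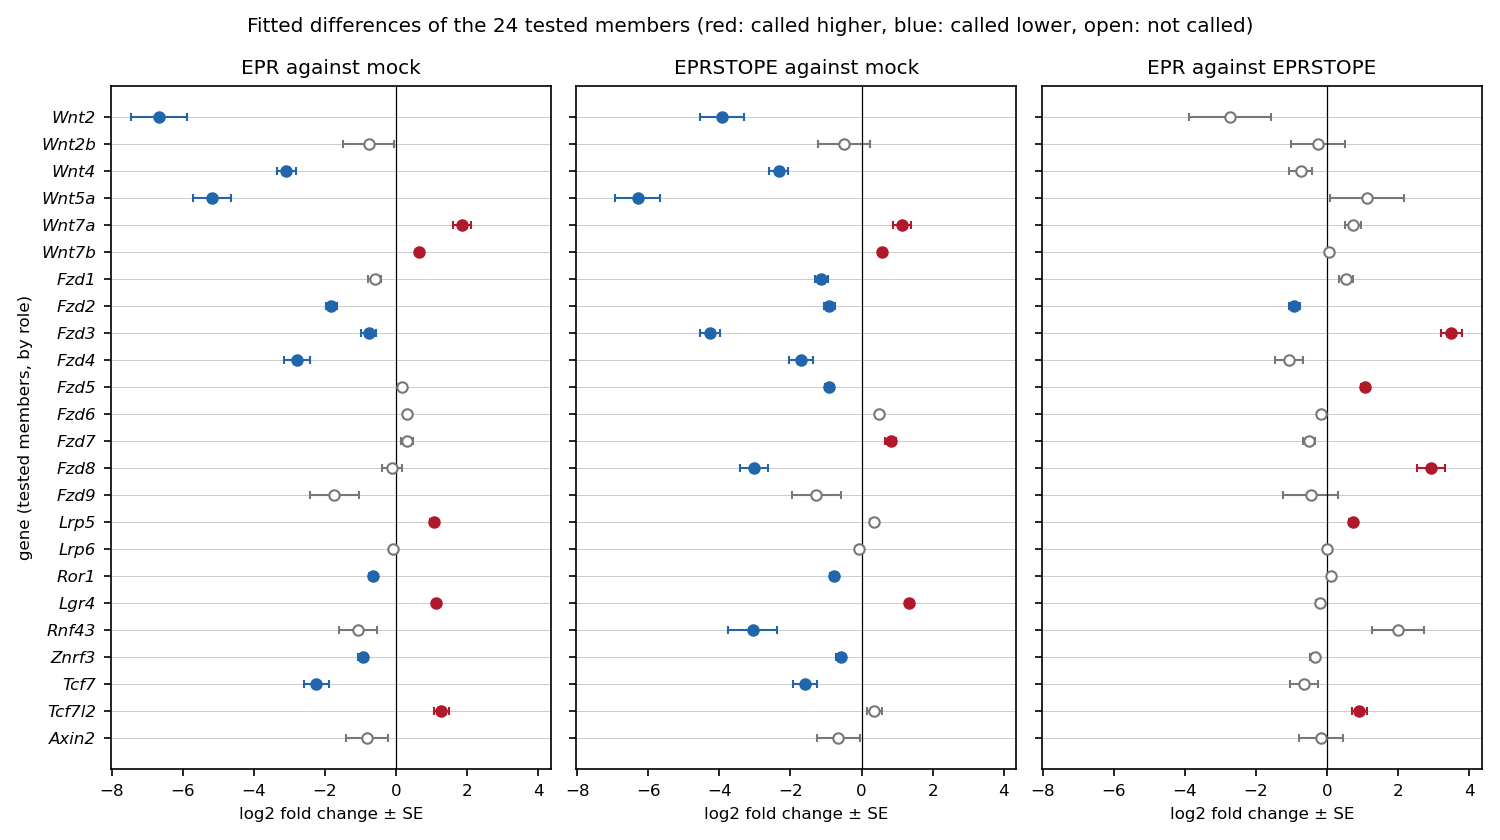
Log2 fold change ± SE of the 24 tested genes in the 3 comparisons, one in each panel, with filled symbols for genes called higher (red) or lower (blue) and open symbols for genes not called. *Fzd3* and *Fzd8*, at -4.27 and -3.03 in EPRSTOPE against mock, were the genes with the largest positive values in the direct comparison, 3.50 and 2.92.

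None of the 8 secreted inhibitor genes, *Dkk1* to *Dkk4*, *Sfrp1*, *Sfrp2*, *Sfrp4* and *Sfrp5*, which keep ligands from receptors or bind LRP5 and LRP6, entered the test. The highest was *Sfrp4*, at 0 to 0.748 CPM over the 9 libraries, so no difference in these genes was detectable at this depth.

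In the R-spondin module the receptor *Lgr4* rose and the ligase *Znrf3* fell in both overexpressing groups. *Lgr4* (ENSMUSG00000050199.13, chromosome 2, 109917647 to 110014257) measured 29.1, 30.9 and 23.4 CPM in mock cells, 57.3, 60.6 and 64.4 CPM with EPR, and 67.8, 73.6 and 68.8 CPM with EPRSTOPE. The 3 groups did not overlap. The rise was 2.20-fold with EPR (1.13, SE 0.10, adjusted p = 1.6e-06) and 2.53-fold with EPRSTOPE (1.34, SE 0.10, adjusted p = 3.5e-07), while the 50 nearest genes had medians of -0.15 and -0.18. *Znrf3* (ENSMUSG00000041961.14, chromosome 11, 5276324 to 5444847) measured 30.0, 28.8 and 21.9 CPM in mock cells, 15.1, 14.1 and 12.5 CPM with EPR, and 18.1, 17.4 and 17.8 CPM with EPRSTOPE. Again the 3 groups did not overlap, with EPR lowest. *Znrf3* fell by 0.94 with EPR (SE 0.13, adjusted p = 8.3e-05) and by 0.59 with EPRSTOPE (SE 0.13, adjusted p = 0.0027). The EPRSTOPE call was lost without mock library 203 or 204 or EPRSTOPE library 210 (-0.51, -0.53 and -0.57). With counts scaled from TPM and length its log2 fold change with EPRSTOPE was 0.07. The shortest coding transcript of *Znrf3* went from 2.35% of its TPM in mock cells to 15.1% with EPR and 27.6% with EPRSTOPE. By library it ran from 0 to 0.259 TPM in mock cells, 0 to 0.867 with EPR and 0.812 to 1.14 with EPRSTOPE. The EPR libraries thus overlapped both other groups.

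*Rnf43*, the second ligase, measured 1.71, 1.69 and 1.14 CPM in mock cells and stayed below 1 CPM in every other library. It was called lower with EPRSTOPE (-3.06, SE 0.69, adjusted p = 0.0029), a call lost without mock library 204 (-2.96, adjusted p = 0.01), and not with EPR (-1.07, adjusted p = 0.12). *Lgr5*, a stem cell marker in many epithelia, was too low to be tested. It measured 2.17, 1.90 and 0.733 CPM in mock cells and at most 0.262 CPM elsewhere, and with no filter it was called lower with EPR (adjusted p = 0.0014) and with EPRSTOPE (adjusted p = 0.0012).

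Of the 4 nuclear factors, *Tcf7* and *Tcf7l2* were expressed at levels that could be tested and moved apart. *Tcf7* (ENSMUSG00000000782.15, chromosome 11, 52252371 to 52283014), best known from T cells, measured 5.13, 3.80 and 4.802 CPM in mock cells, 0.960, 0.631 and 1.22 CPM with EPR, and 1.53, 1.92 and 1.04 CPM with EPRSTOPE. Both overexpressing groups lay below mock and overlapped each other. The log2 fold changes were -2.24 for EPR (SE 0.35, adjusted p = 0.0002) and -1.60 for EPRSTOPE (SE 0.34, adjusted p = 0.002), and the second call was lost without mock library 205 (-1.56, adjusted p = 0.01). *Tcf7l2* (ENSMUSG00000024985.18, chromosome 19, 55741820 to 55933654), the main TCF factor of the gut epithelium, measured 5.13, 5.28 and 3.58 CPM in mock cells, 11.2, 9.35 and 12.8 CPM with EPR, and 5.25, 5.98 and 6.44 CPM with EPRSTOPE. EPR libraries lay above all others, and mock and EPRSTOPE overlapped. It rose 2.42-fold with EPR against mock (1.27, SE 0.20, adjusted p = 0.00024). EPR against EPRSTOPE gave 0.91 (SE 0.20, adjusted p = 0.0048), a call lost without any of the EPR libraries 206 and 208 or the EPRSTOPE libraries 209, 210 and 211, with values from 0.81 to 0.98. *Lef1* and *Tcf7l1* had at most 0.622 and 1.46 CPM in any library and were not tested.

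*Axin2*, the most widely used readout of β-catenin activity, measured 2.17, 1.27 and 1.55 CPM in mock cells, 1.05, 1.39 and 0.374 CPM with EPR, and 0.169, 1.49 and 1.27 CPM with EPRSTOPE. The groups overlapped, and no comparison was called. At this depth its intervals were wide, -2.12 to 0.47 for EPR and -1.96 to 0.65 for EPRSTOPE against mock. *Nkd1*, the other feedback target, had at most 4 counts in any library and was not tested.

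*Lrp5* and *Tcf7l2* both lie on chromosome 19, whose genes had a median below 0 in EPRSTOPE against mock. Over the 477 tested genes of this chromosome the medians were -0.55 for EPRSTOPE and -0.02 for EPR against mock, and 0.55 for EPR against EPRSTOPE, as log2 fold changes. For *Lrp5* the medians of the 50 nearest genes were -0.43, 0.12 and 0.44, and for *Tcf7l2* they were -0.57, -0.10 and 0.53. Relative to these neighbours EPR against EPRSTOPE was 0.29 for *Lrp5* and 0.38 for *Tcf7l2*, both under the size limit. Against mock, the values relative to these neighbours were 0.94 for *Lrp5* and 1.38 for *Tcf7l2* with EPR. With EPRSTOPE they were 0.76 and 0.93, so these values were beyond the size limit with either RNA, but differences from the neighbours were not tested. The EPRSTOPE differences from mock were not called (adjusted p = 0.019 and 0.19). For *Tcf7l2* this difference was -0.22 with counts scaled from TPM and length. What moved the chromosome was not tested.

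**Figure D4:**
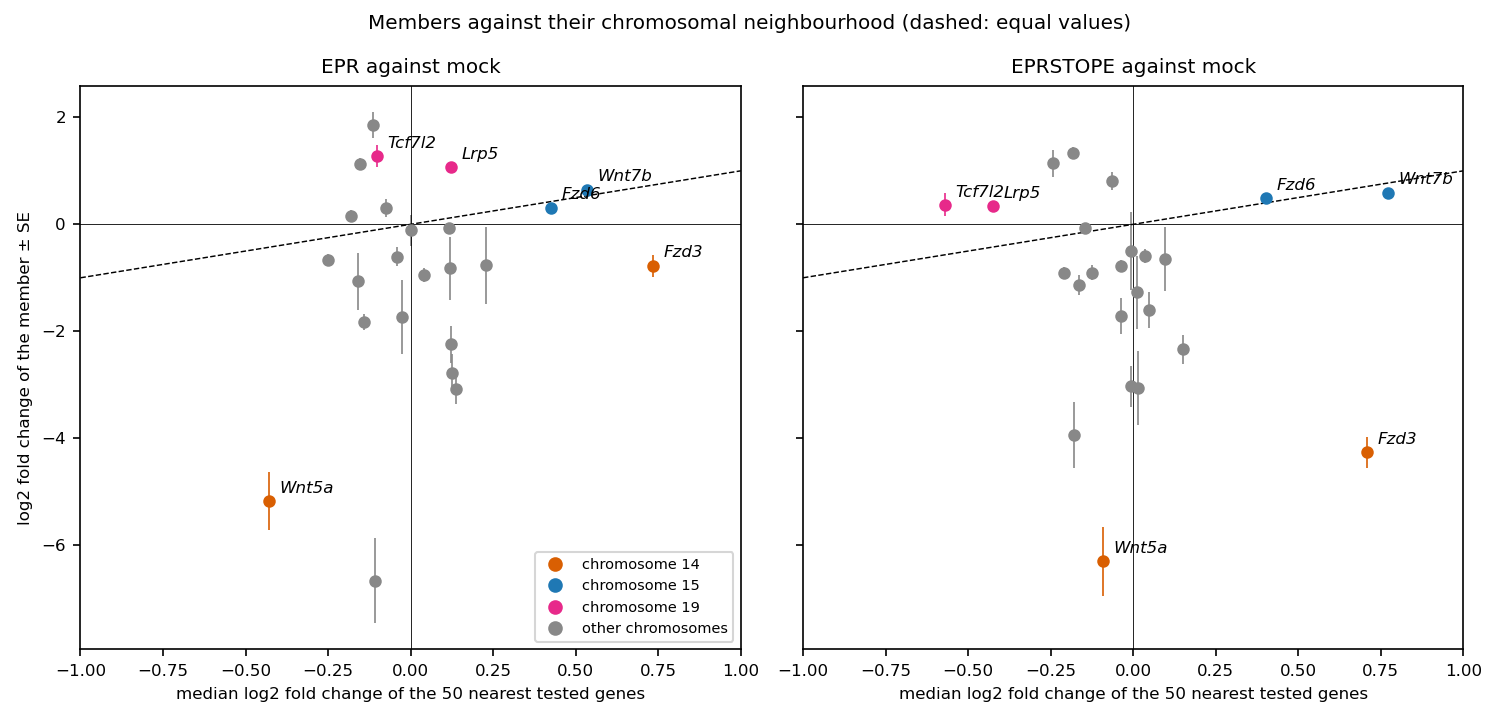
Log2 fold change ± SE of the 24 tested genes (vertical axis) against the median log2 fold change of the 50 tested genes nearest to each (horizontal axis), for EPR (left) and EPRSTOPE (right) against mock, with the dashed line at equal values. *Wnt7b* and *Fzd6* on chromosome 15 sat near the line, *Fzd3* on chromosome 14 far below it, and *Lrp5* and *Tcf7l2* on chromosome 19 above it with neighbours below 0 in EPRSTOPE cells.

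Beyond these genes, a list of 62 other pathway genes was counted, of which 45 were tested. EPR against mock called 6 higher and 8 lower, EPRSTOPE against mock 6 and 6, and EPR against EPRSTOPE 5 and 5. The shares of all tested genes were 15.2% and 12.9%, 15.6% and 12.4%, and 6.86% and 6.35% in the same order. Each count lay within a few genes of its share, and these counts too are descriptions only. Among the genes higher in EPR against EPRSTOPE, *Rspo3* and *Ptk7* stayed under 1 CPM in every EPRSTOPE library and entered the test through the other groups. *Tnks2* and *Tle4*, also among them, lie on chromosome 19. The list's median log2 fold change was -0.03 with EPR and -0.09 with EPRSTOPE. In the secretion pair, *Porcn* averaged 3.62 ± 0.584 CPM (SD, n = 3) in mock cells, 9.37 ± 0.333 with EPR and 15.02 ± 1.99 with EPRSTOPE, and its rise passed the test in both comparisons with mock (1.35 and 2.03, adjusted p = 4.8e-05 and 1.3e-06). The carrier of Wnt proteins, *Wls*, was not called in any comparison. The difference of *Porcn* between EPR and EPRSTOPE (-0.68, adjusted p = 0.0063) was lost without EPR library 206, 207 or 208 or EPRSTOPE library 209 or 210, with values from -0.70 to -0.58.

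Of the 15 cytoplasmic and destruction complex genes, *Ctnnb1*, which encodes β-catenin, was the 1 gene called higher against mock. It measured 725 to 761 CPM in mock cells, 2313 to 2393 CPM with EPR and 1735 to 1800 CPM with EPRSTOPE, with no overlap between groups. Its log2 fold changes were 1.66 and 1.24 (SE 0.04 each, adjusted p = 3.3e-11 and 2.8e-10), and the difference between EPR and EPRSTOPE of 0.42 stayed under the size limit. β-catenin also binds E-cadherin at junctions, and *Cdh1* was higher in the same groups, as given above. A link between the rises of *Ctnnb1* and *Cdh1* was not tested. *Apc2* was lower with EPR (-1.15, adjusted p = 0.0062), a call lost without mock library 203, 204 or 205 or EPR library 206 or 207 (-1.24 to -0.99). *Amer1*, a partner of APC, was lower with EPR (-0.79, adjusted p = 0.0022), a call lost without mock library 204 or 205 or EPR library 208 (-0.76 to -0.64), and with EPRSTOPE (-0.77, adjusted p = 0.0032), a call lost without mock library 204 or 205 or EPRSTOPE library 209 or 210 (-0.74 to -0.68). The tankyrase *Tnks2*, on chromosome 19, was higher in EPR than in EPRSTOPE cells (0.87, adjusted p = 1.7e-07), where its 50 nearest genes had a median of 0.50.

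Among 14 other secreted or surface modulators, the Wnt inhibitor *Apcdd1* went in opposite directions. It averaged 26.2 ± 2.28 CPM in mock cells, 13.3 ± 1.49 with EPR and 62.4 ± 8.93 with EPRSTOPE (SD, n = 3), with values of -0.98 and 1.26 against mock and -2.24 in the direct comparison (adjusted p = 5.6e-05, 3.6e-06 and 1.5e-07). *Rspo3*, an R-spondin and so a ligand of LGR4, measured 1.38 to 2.17 CPM in mock cells, 1.89 to 3.64 CPM with EPR and at most 0.214 CPM with EPRSTOPE, and EPRSTOPE against mock and the direct comparison were called (adjusted p = 0.00052 and 0.0002). Among 10 β-catenin cofactors the co-repressor *Tle1* was lower with both RNAs (-1.14 and -0.59, adjusted p = 6.2e-06 and 0.0011). Its direct difference (-0.55, adjusted p = 0.004) was lost without EPR library 207 or 208 or EPRSTOPE library 210 (-0.51 to -0.47). *Kremen1* and *Bcl9* were also among the genes called lower with EPR (-0.50 and -0.76, adjusted p = 0.0058 and 0.0021). *Kremen1* lost its call without mock library 203 or 204 or EPR library 207 or 208 (-0.48 to -0.43), and *Bcl9* without mock library 205 or EPR library 206 or 208 (-0.72 to -0.62). *Tle4*, on chromosome 19, was lower with EPRSTOPE alone against mock (-1.52, adjusted p = 6.1e-06) and higher in EPR than in EPRSTOPE cells (1.30, adjusted p = 6.3e-05), with neighbour medians of -0.56 and 0.60.

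In the 12 planar polarity and other receptor genes, *Ptk7*, a co-receptor of planar polarity, averaged 4.53 ± 0.828 CPM in mock cells, 16.2 ± 2.63 with EPR and 0.631 ± 0.0518 with EPRSTOPE (SD, n = 3). It rose with EPR (1.82, SE 0.19, adjusted p = 8.5e-06) and fell with EPRSTOPE (-2.84, SE 0.29, adjusted p = 5.4e-06), and EPR against EPRSTOPE gave 4.66 (SE 0.26, adjusted p = 1.3e-07). *Vangl2*, a core planar polarity gene, fell with EPRSTOPE (-3.17, adjusted p = 7.1e-05) from 6.06 to 9.61 CPM in the mock libraries to at most 1.39 CPM. *Celsr1* rose with both RNAs (1.66 and 1.55, adjusted p = 3.6e-09 and 5.5e-09), beside neighbour medians of 0.60 and 0.69 on chromosome 15. *Ryk*, a Wnt receptor, was lower with EPR (-0.53, adjusted p = 1.7e-05), a call lost without EPR library 207 or 208 (-0.50 and -0.48). Of 9 other known targets, *Ccnd1* (cyclin D1) was higher with EPR (0.55, adjusted p = 7.6e-07) and *Cd44*, a surface receptor of hyaluronan, with EPRSTOPE (1.03, adjusted p = 3.3e-08). *Cd44* was lower in EPR than in EPRSTOPE cells (-0.73, adjusted p = 2.2e-06), and *Myc* was not called in any comparison, except without EPRSTOPE library 209 in EPR against EPRSTOPE (-0.53).

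**Figure D5:**
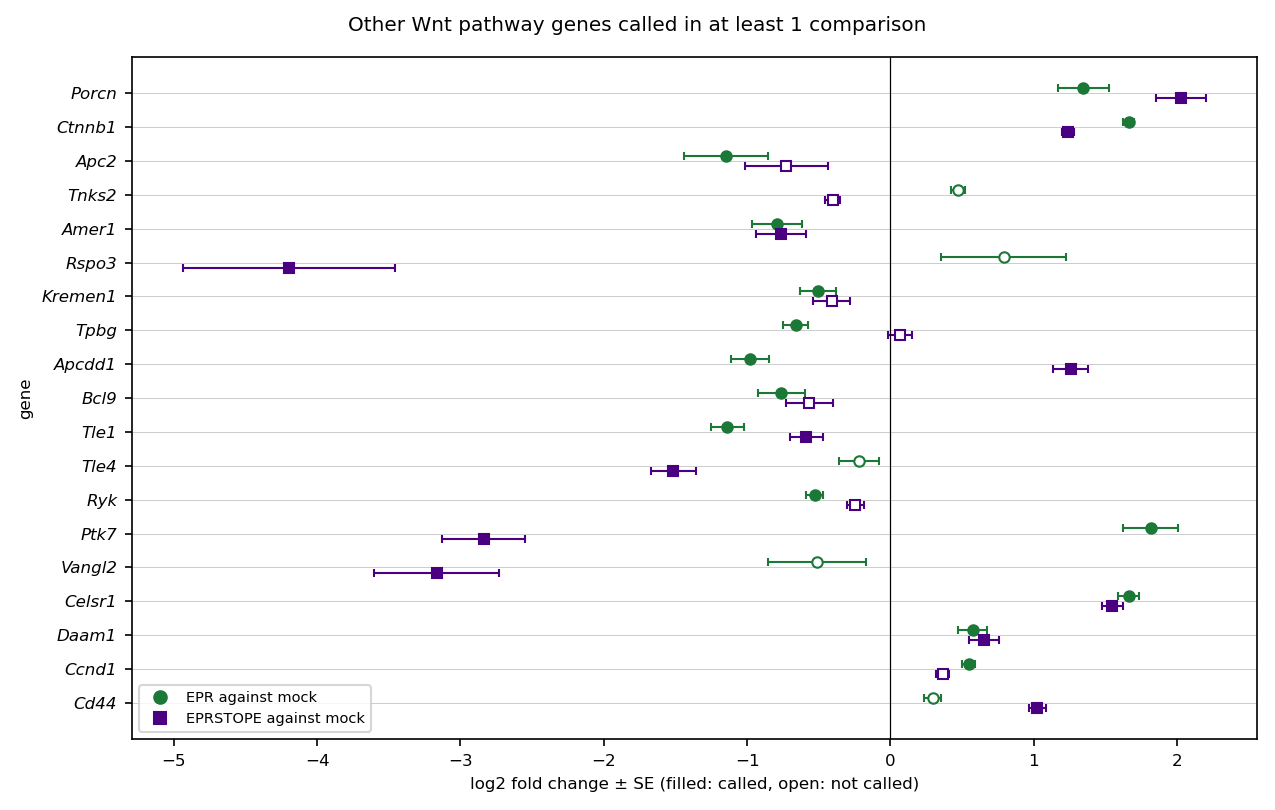
Log2 fold change ± SE of the other pathway genes called in at least 1 of the 3 comparisons, for EPR (circles) and EPRSTOPE (squares) against mock, filled where that comparison was called. *Ptk7*, at 1.82 and -2.84, and *Apcdd1*, at -0.98 and 1.26, had opposite signs with the 2 RNAs, while *Ctnnb1*, *Porcn* and *Celsr1* were higher with both.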

How the data were processed

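RNA-Seq of 9 NMuMG libraries was used, grouped by genotype label, with the library numbers of the titles as replicate names. Per the labels, total RNA libraries were made with a stranded kit. The authors quantified the reads with kallisto 0.43.1 on the Gencode vM15 mouse transcripts (GRCm38.p5) and deposited, for every one of 131100 transcripts, its estimated count (not normalized) and its TPM, with a transcript length and an effective length in bases.

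Estimated counts were summed per gene symbol and rounded. The 15370 genes reaching 1 CPM in 3 or more libraries were analysed by edgeR 4.0.16 (quasi-likelihood test, TMM, a single factor with 3 levels fitted to all 9 libraries) in R 4.3.3, with the filter and the model that the study's methods give for limma-voom on transcripts. Standard errors came from the F statistic, and intervals of a difference are 95% intervals from the same fit. An exact permutation test of 3 libraries against 3 cannot go below p = 0.1. On simulated counts for the 15370 genes in EPR against mock, edgeR recovered 152 of 200 genes changed by 1.5 on the log2 scale (76%) with 2 false calls, and 98.5% of the 135 of these at 10 CPM or more.

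The genes and lists were chosen with earlier results of these data known. Named with values in every library are genes called in at least 1 comparison averaging 3 CPM or more in 1 group, and of the other pathway genes those called with the largest change in each direction of each sub-list. *Axin2*, *Rnf43*, *Lgr5*, *Wnt2b*, *Fzd6*, *Fzd9*, *Lrp6*, *Wnt10a*, *Wnt9a*, *Kremen1*, *Bcl9*, *Wls*, *Myc* and the undetected members are named outside this rule. Positions are from Gencode M21 on GRCm38, and promoters from RefSeq on GRCm38.p6. Alternatives were DESeq2 1.42.0, limma 3.58.1 with voom, RLE size factors, other filters, counts scaled from TPM and length, a fit of only the groups compared, other thresholds, centring on the 50 nearest genes, and leaving out each library. Tables and figures were made in Python 3.11.15 (pandas 2.3.3, scipy 1.17.1, matplotlib 3.10.9).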

Additional observations from a re-analysis of the deposited data

How the results depend on the processing

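No paired analysis was possible because the groups share no replicate numbers. Of the log2 fold changes recomputed for the 18 genes shown by library, 858 kept their side of the threshold, 35 lost a call, 5 gained one and 2 changed sign from a called value. The 2 were *Wnt7b* in EPRSTOPE against mock centred on its 50 nearest genes (-0.184) and *Znrf3* in EPRSTOPE against mock with counts scaled from TPM and length (0.072). Another 4 values that were not called also changed sign, *Fzd8* in EPR against mock (-0.113) with counts scaled from TPM and length (0.144) and without mock library 204 (0.012) or EPR library 208 (0.004), and *Tcf7l2* in EPRSTOPE against mock (0.363) with counts scaled from TPM and length (-0.224). With DESeq2 and with RLE size factors the same genes were called as in the report in all 3 comparisons, and limma-voom added *Fzd1* in EPR against mock. Counts of called genes moved as follows. With at least 10 counts in every library, which removes genes near 0 in a group, EPR against mock had 5 lower in place of 9, EPRSTOPE against mock 6 lower in place of 13, and EPR against EPRSTOPE 3 higher in place of 5. With counts scaled from TPM and length, EPRSTOPE against mock had 8 lower, and EPR against EPRSTOPE 3 higher and 0 lower in place of 1 (edgeR, with 6 lower at an unadjusted p under 0.05). With a log2 fold change beyond 1, EPRSTOPE against mock had 2 higher in place of 4, and EPR against EPRSTOPE 3 higher and 0 lower (2 at an unadjusted p under 0.05). Centring on the 50 nearest genes left 3 higher in EPR against EPRSTOPE. With no filter, or at an adjusted p under 0.05 with no size limit, 2 were lower there. The causes of these changes were not tested. Depth limits what can be said of members under about 1 CPM, including the inhibitors, *Lef1*, *Nkd1* and most ligands, and of *Axin2*. Without 1 library, *Dvl2* (-0.56, EPRSTOPE against mock, without EPRSTOPE library 210) and *Ctnnbip1* (-0.68, EPR against mock, without mock library 203) gained a call.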
